A study of Mus musculus with 6 samples.

Results

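The NR4A nuclear receptors are 3 related transcription factors, encoded in the mouse by Nr4a1 (Nur77), Nr4a2 (Nurr1) and Nr4a3 (Nor1). They were followed here in RNA-seq of embryonic stem (ES) cells in which the protein DDX6, tagged with a degron, can be depleted by adding an auxin analog. The genes were chosen by family membership, with their values in these same libraries already known, so all of their levels and changes below are given as a description. Where the number of members called by the fit over all genes is printed, it stands beside the share of all genes called and is no test of the members. All 3 were among the 55487 genes of the count table, and all 3 passed the filter on low counts that left 15748 genes for testing.

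The cells were D6AdP cells. Their 2 alleles of Ddx6 encode DDX6 joined to mCherry and an auxin-inducible degron (AID), a single Dcp1a allele encodes DCP1A-EGFP, and they express FLAG-tagged OsTIR1 from a transgene. OsTIR1 is an F-box protein of rice that, once an auxin binds it, has AID-tagged proteins degraded. DDX6 is an RNA helicase of P-bodies that represses translation and promotes decapping of mRNA. Every group had this genotype and was grown on fibroblast feeder cells treated with Mitomycin-C, in medium with LIF and inhibitors of MEK (PD0325901) and of GSK3 (CHIR99021). 5-Ph-IAA was given at 500 nM for 0, 3 or 6 h, with 2 libraries per time and 6 in all. Untreated time-matched controls and cells lacking the degron were not analysed here, so effects of DDX6 depletion, of the analog itself, of handling and of time in culture cannot be told apart. The labels name a single cell line and no separate cultures for the libraries, so a p-value given for another gene rests on the variation of library against library, which may be technical.

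NR4A proteins are orphan receptors: their ligand pocket is filled by bulky side chains, and their activity follows mainly from how much of the protein is made. Their genes are immediate early genes, whose transcription is switched on within minutes by cAMP and the factor CREB, by MEF2 and by SRF, and whose mRNAs are short-lived. The proteins bind the sequence AAAGGTCA, called NBRE, as monomers, and NR4A1 and NR4A2 can also pair with retinoid X receptors. They are known for roles in T cell tolerance, in dopamine neurons (Nr4a2), and in metabolism and apoptosis.

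The 250 bases before the start of each gene are printed because they show a feature that the choice of genes did not use. They are from the RefSeq promoters on GRCm38.p6, 5′ to 3′ on the strand of the gene. Capitals mark every TGACG, the core of the site that CREB binds, on either strand (CGTCA where it lies on the other strand).
Nr4a1, chr15:101266596-101266845, plus strand: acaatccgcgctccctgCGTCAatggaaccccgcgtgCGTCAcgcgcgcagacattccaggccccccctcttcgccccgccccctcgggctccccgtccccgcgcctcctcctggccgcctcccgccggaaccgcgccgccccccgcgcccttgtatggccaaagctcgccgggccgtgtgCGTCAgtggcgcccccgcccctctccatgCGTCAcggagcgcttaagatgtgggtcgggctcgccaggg
Nr4a2, chr2:57124004-57124253, minus strand: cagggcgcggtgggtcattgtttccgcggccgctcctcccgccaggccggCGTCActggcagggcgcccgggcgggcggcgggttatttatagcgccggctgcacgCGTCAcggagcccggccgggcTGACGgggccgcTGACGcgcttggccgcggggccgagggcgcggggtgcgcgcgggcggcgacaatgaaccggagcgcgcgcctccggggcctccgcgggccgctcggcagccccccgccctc
Nr4a3, chr4:48045055-48045304, plus strand: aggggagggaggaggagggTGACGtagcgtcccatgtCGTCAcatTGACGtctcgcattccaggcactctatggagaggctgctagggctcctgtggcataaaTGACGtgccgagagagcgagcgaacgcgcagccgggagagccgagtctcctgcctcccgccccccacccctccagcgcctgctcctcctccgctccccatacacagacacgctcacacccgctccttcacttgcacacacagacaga

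Each of the 3 promoters held 4 matches of TGACG. In Nr4a1 they began 233, 213, 69 and 40 bases before the start, all on the other strand. In Nr4a2 they began 200, 144, 123 and 111 bases before it, and in Nr4a3 231, 213, 205 and 147. The spacing therefore differed between the genes, and the pair nearest to the start was found in Nr4a1. Counting both strands, 25.3% of the 14240 RefSeq promoters of tested genes held at least 1 TGACG and 0.267% held 4 or more. Over all 32851 promoters the shares were 17.8% and 0.137%. The full palindrome TGACGTCA contains the core on both strands, so it is counted once on each. It was in none of the 3 windows and in 2.46% of the promoters of tested genes. The NBRE, AAAGGTCA, was also in none of the 3, and in 0.969% of the promoters of tested genes. The windows were rich in G and C, at 74.4% in Nr4a1, 80% in Nr4a2 and 63.6% in Nr4a3. A match is only a run of letters, and no binding was measured.

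Nr4a1 (ENSMUSG00000023034) lies on chromosome 15 from 101254269 to 101274795 on the plus strand of GRCm38. Its RefSeq window lies inside these GENCODE bounds, which include starts farther upstream. Nr4a2 (ENSMUSG00000026826) lies on chromosome 2 from 57106830 to 57124003 on the minus strand, and Nr4a3 (ENSMUSG00000028341) on chromosome 4 from 48045153 to 48086447 on the plus strand. The later part of the Nr4a3 window, with the match 147 bases before the RefSeq start, also lies inside the GENCODE bounds of that gene. In GENCODE M21 the exons of all 3 are free of overlap with any other annotated gene, on either strand. Whether this also holds in the annotation used for the deposited counts is not known.

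Nr4a1 was the most abundant member. Its counts were 1712 and 1893 before treatment, 1802 and 1710 after 3 h, and 753 and 853 after 6 h. In CPM, counts scaled to library size with TMM factors, these were 88.6 and 87.7 in the 0 h libraries, 85.1 and 79.0 in the 3 h libraries, and 45.4 and 45.7 in the 6 h libraries. Both 6 h libraries were far below the other 4, and both 3 h libraries were slightly below both 0 h libraries. The means were 88.2 ± 0.696, 82.1 ± 4.33 and 45.5 ± 0.269 CPM (SD, n = 2 each), so that 51.6% of the 0 h level was measured at 6 h.

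Nr4a2, the receptor of dopamine neurons, was scarce. Its counts were 121 and 121, then 117 and 123, then 46 and 58, or 6.27 and 5.60 CPM, 5.53 and 5.68 CPM, and 2.77 and 3.11 CPM. The 0 h and 3 h libraries overlapped, and both 6 h libraries lay below them. The means were 5.93 ± 0.468, 5.61 ± 0.11 and 2.94 ± 0.24 CPM (SD, n = 2 each), which left 49.6% of the 0 h level at 6 h.

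Counts of Nr4a3 were 147 and 139 before treatment, 115 and 122 after 3 h, and 29 and 30 after 6 h. The values were 7.61 and 6.44 CPM, then 5.43 and 5.64 CPM, then 1.75 and 1.61 CPM. No group overlapped another, and each time was lower than the one before. The means were 7.02 ± 0.831, 5.54 ± 0.144 and 1.68 ± 0.0978 CPM (SD, n = 2 each), 78.9% of the 0 h level at 3 h and 23.9% at 6 h. The lowest library thus held 29 reads of Nr4a3, against 3 counts, or 0.139 to 0.181 CPM depending on the library, taken as the limit of detection.

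**Figure D1:**
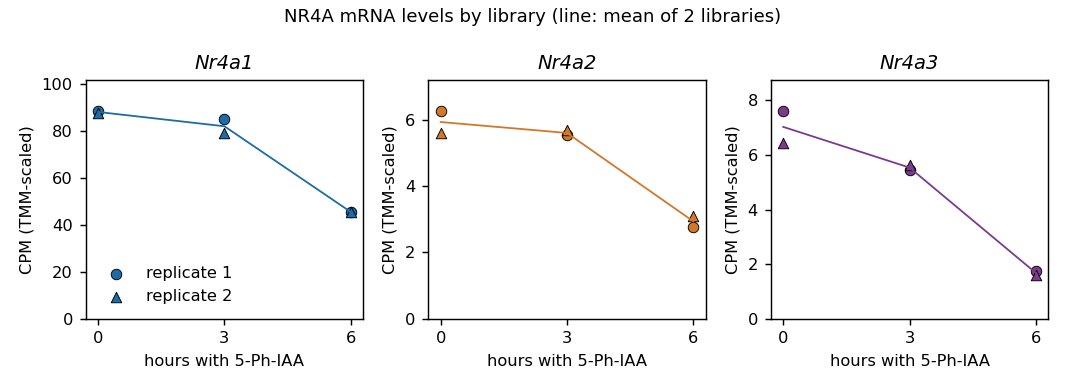
Levels of Nr4a1, Nr4a2 and Nr4a3 in TMM-scaled CPM (vertical axis, from 0) against hours with 5-Ph-IAA, with 1 point per library and a line through the means of 2 libraries. Nr4a1 and Nr4a2 stayed near their 0 h level at 3 h and were at 45.5 and 2.94 CPM only at 6 h, whereas Nr4a3 was lower at each later time.

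Compared per length, as CPM per kilobase of exon, Nr4a1 was far above the others at each time. Its means were 25.1 at 0 h, 23.4 at 3 h and 13 at 6 h. Nr4a2 measured 1.46, 1.38 and 0.724 and Nr4a3 1.17, 0.925 and 0.28 CPM per kilobase at those times. The order Nr4a1, Nr4a2, Nr4a3 thus held at every time on this scale. At 0 h the libraries of the lower pair did not overlap, from 1.38 to 1.54 in Nr4a2 and from 1.08 to 1.27 in Nr4a3. Before division by length Nr4a3 had the higher CPM of the pair at 0 h, because its exons span 5987 bases against 4059 in Nr4a2 and 3509 in Nr4a1. The summed CPM of the family was 103 and 99.7, then 96.1 and 90.3, then 49.9 and 50.5. Nr4a1 supplied from 86.5% to 90.9% of that sum in the 6 libraries, and Nr4a3 went from 7.42% and 6.46% of it at 0 h to 3.5% and 3.19% at 6 h.

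As fitted log2 fold changes, the members moved little in the first interval. At 3 h against 0 h the values were -0.10 ± 0.05 (SE) for Nr4a1, -0.08 ± 0.13 for Nr4a2 and -0.34 ± 0.13 for Nr4a3. None of the 3 was called at an adjusted p under 0.05 (edgeR's quasi-likelihood test with Benjamini-Hochberg adjustment over all 15748 genes), in a comparison where 0.0889% of tested genes were called lower and 0.0508% higher. Leaving out 0 h replicate 1 gave -0.21 for Nr4a3, and leaving out 0 h replicate 2 gave -0.46. A covariate of the mean feeder marker level gave -0.04 ± 0.28, and the part of feeder cells in it was not tested.

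After 6 h, relative to 0 h, the log2 fold changes were -0.95 ± 0.05 (SE) for Nr4a1, -1.0 ± 0.16 for Nr4a2 and -2.06 ± 0.18 for Nr4a3, that is 1.94-fold, 2.01-fold and 4.17-fold lower. In order of size among the falls of all tested genes, Nr4a3 stood at place 2, Nr4a2 at place 132 and Nr4a1 at place 161. All 3 were called lower, against 12.3% of tested genes called lower and 10% called higher. Since the members were chosen with these values known, nothing is read from that count. Nr4a1 and Nr4a2 differed by less than the error of Nr4a2, and the value of Nr4a3 was lower than both by several times its error. That difference was not tested, because it was in view when the genes were chosen.

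Most of the fall came in the second interval. Between 3 h and 6 h the values were -0.85 ± 0.05 for Nr4a1, -0.93 ± 0.16 for Nr4a2 and -1.72 ± 0.19 for Nr4a3. All 3 were again called, with 11.8% of tested genes called lower and 9.90% higher, and again nothing is read from it. The comparisons with 0 h share their control libraries, and those ending at 6 h share the 6 h libraries, so they are not separate support. The median log2 fold change of all tested genes was -0.00084, 0.00195 and 0.00517 in the comparisons of 3 h with 0 h, 6 h with 0 h and 6 h with 3 h.

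**Figure D2:**
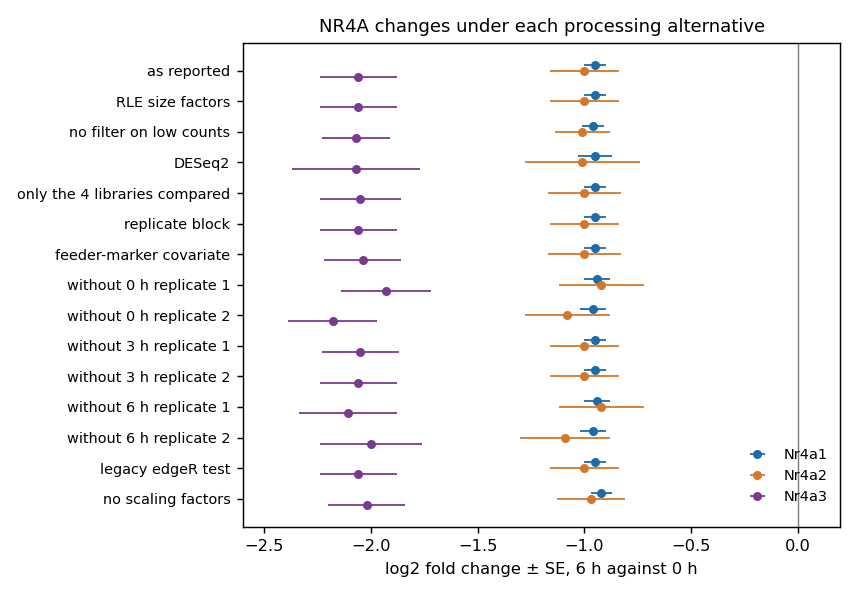
Log2 fold change at 6 h against 0 h (horizontal axis) with its SE (bars) for the 3 genes, as reported and under 14 alternative ways of processing, 1 per row. Nr4a1 stayed between -0.96 and -0.92, Nr4a2 between -1.09 and -0.92 and Nr4a3 between -2.18 and -1.93.

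The libraries came from bulk cultures that held feeder fibroblasts as well as ES cells, and fewer cells of a type and less RNA per cell cannot be told apart. NR4A reads can come from either kind of cell. All 25 feeder markers were detected in every library, with a summed level of 25400 to 28000 CPM at 0 h, 24200 to 24700 at 3 h and 24600 to 27500 at 6 h. From 0 h to 6 h their median log2 fold change was -0.02 and their range ran from -0.24 to 0.14, with 0 called lower and 1, Col6a2, called higher (0.14 ± 0.04, adjusted p = 0.0295 with edgeR and 0.1 with DESeq2). The count called lower was 3 without replicate 2 of 0 h and 6 without replicate 1 of 6 h, and Col6a2 lost its call when any 1 of the 0 h or 6 h libraries was left out. With replicate number in the fit (replicate block) 3 were called lower and 4 higher, and with no scaling factors 0 and 4. The feeder-marker covariate, made from these same markers, gave 4 in each direction. At 3 h all 25 had negative values, with a median of -0.14, and none was called (19 had an unadjusted p under 0.05, edgeR, and DESeq2 also called none). In all, 1680 of 15748 tested genes had such an unadjusted p at 3 h, in either direction. That number also stands beside the unadjusted counts of the lists below. The 12 ES cell markers, such as Esrrb and Tfcp2l1, were likewise detected in every library. They summed to 6100 and 6320 CPM, then 6390 and 6330, then 5720 and 5910, so both 6 h libraries were lowest. Of these 12, 5 were called lower at 6 h and 4 higher, or 41.7% and 33.3%, beside 12.3% and 10% of all tested genes, with Fbxo15 at -0.46 ± 0.04 and Tfcp2l1 at -0.30 ± 0.03. The 4 called higher were Klf4 (0.17), Tdgf1 (0.14), Nanog (0.13) and Sox2 (0.13), named after their values were seen. Only 1 was called higher with no filter, and 2 without replicate 1 of 0 h or replicate 2 of 6 h. Between 3 h and 6 h, when the NR4A genes moved most, 8 feeder markers were called higher (32%) and 0 lower (median 0.12, DESeq2 5 higher). In that interval 6 ES cell markers were called lower (50%) and 0 higher (median -0.08, DESeq2 5 lower). Of all tested genes 11.8% were called lower and 9.90% higher. The 1 ES cell marker called at 3 h was Klf4 (0.28, edgeR adjusted p = 0.00343). That is 8.33% of the list, beside 0.0508% of all tested genes called higher at 3 h. DESeq2 also called 1 higher, but with no filter the count of genes called at 3 h was 0. With the feeder-marker covariate the log2 fold changes of Nr4a1, Nr4a2 and Nr4a3 from 3 h to 6 h were -0.85 ± 0.07, -0.96 ± 0.26 and -2.0 ± 0.29, and from 0 h to 6 h -0.95, -1.0 and -2.04. The part of the ES cell marker shift in the NR4A values was not tested.

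Among the 34 tested nuclear receptors the NR4A genes held the 3 lowest places in the order of the 6 h change. Nr4a1 at place 3 and Nr0b1 at place 4 both stood at -0.95, so these places are not told apart. The order is a description, since the NR4A values were known when the genes were chosen. The list of the other receptors had 46 genes, of which 31 passed the filter on low counts and 15 had too few reads to be tested. Of these 31, 8 fell and 2 rose at 6 h, or 25.8% and 6.45%, beside 12.3% and 10% of all tested genes, and the median log2 fold change was 0.05. The largest fall outside the family was in Nr0b1 (DAX1), a receptor without a DNA-binding domain that belongs to the naive pluripotency network. Counts of Nr0b1 were 2097 and 2429, then 2145 and 2150, then 945 and 1079, and it fell from 111 ± 2.76 to 57.4 ± 0.659 CPM (log2 fold change -0.95 ± 0.04, edgeR adjusted p = 4.64e-10). Both 6 h libraries of Nr0b1 were below the other 4, and its change was the size of that of Nr4a1. After a wide gap came Nr1d1, a clock repressor, and Esrrb, an orphan receptor of naive ES cells, both at -0.42.

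Before treatment Esrrb was the receptor with the highest level per length, 123 CPM per kilobase, and Nr4a1 was at place 4 of the 34 tested receptors. Esrrb fell from 741 ± 26.5 to 555 ± 16.4 CPM (edgeR adjusted p = 2.88e-07). Nr5a2 (LRH1), which sustains Pou5f1 expression, fell by 0.40 on the log2 scale, and Rara, a retinoic acid receptor, by 0.34. The pair that rose was Rxra and Rarb. Rxra, the shared dimer partner of many receptors, went from 29.8 ± 0.21 to 39.2 ± 0.657 CPM (0.40 ± 0.06, edgeR adjusted p = 0.000126). Rarb, a target of retinoic acid signalling, was near the limit of detection, with 5 and 7 counts at 0 h and 18 and 19 at 6 h (1.82 ± 0.39, edgeR adjusted p = 0.00285), and DESeq2 gave it no adjusted p. At 3 h none of the 31 was called (3 were lower at an unadjusted p under 0.05, edgeR, and DESeq2 also called none). From 3 h to 6 h, 6 were lower and 3 higher, or 19.4% and 9.68%, beside 11.8% and 9.90% of all tested genes.

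**Figure D3:**
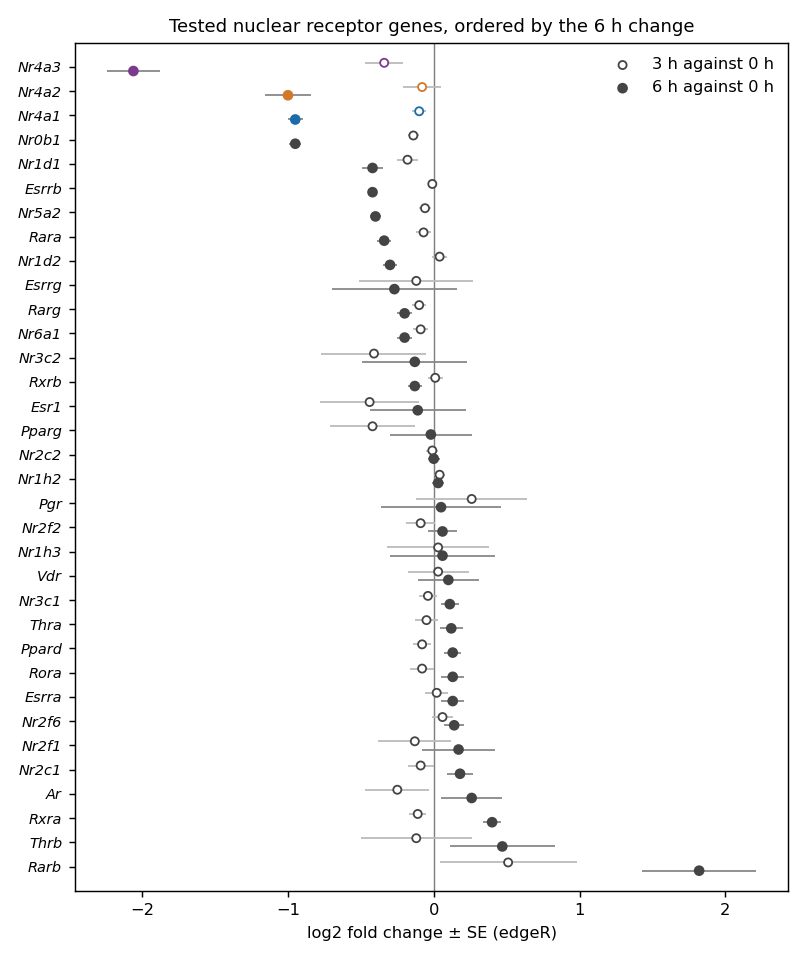
Log2 fold change with its SE (horizontal axis) for the 34 tested nuclear receptor genes, in the order of their 6 h change, with open points for 3 h and filled points for 6 h, both against 0 h. Nr4a3, Nr4a2, Nr4a1 and Nr0b1 are set apart at the low end at 6 h, and Rarb at the high end, with most others between -0.42 and 0.40.

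The likeness of single genes to each member was measured as the distance between log2 CPM profiles over the 6 libraries. Each profile was centred on its 0 h mean. The search covered 11680 other genes whose log2 CPM averaged 1 or more, after predicted genes, pseudogenes and unnamed genes were left out. The gene nearest to Nr4a1 was Nr0b1, at a distance of 0.0895 (r = 0.997). Then came Trpm1, an ion channel of melanocytes (0.144), Bach2, a transcriptional repressor of lymphocytes (0.165), Nr4a2 itself (0.19) and Spen, a corepressor that binds RNA and acts in X inactivation (0.192). Nr4a2 was nearest to Nr4a1 (0.19), then to Nr0b1 (0.212), Bach2 (0.234), Trpm1 (0.252) and Nt5e, an enzyme that makes adenosine (0.258). Nr0b1, Bach2 and Trpm1 were thus among the 5 nearest genes of both.

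Nr4a3 had other neighbours and none so near. They were Gpr83, a G protein-coupled receptor (0.619), Ripply3, a transcriptional corepressor (0.665), the phosphatase gene Pudp (0.796), Fgfbp1, a carrier of fibroblast growth factors (0.947), and Dio2, which activates thyroid hormone (0.999). The 6 h fall of Nr4a3 stood at place 2 among those of all tested genes, so almost no gene could match it in size. It rested on 29 and 30 counts at 6 h, and the part of counting error in these distances was not tested. Nr4a3 was at a distance of 1.53 from Nr4a1 and 1.49 from Nr4a2. All 3 pairs of members nevertheless had r of 0.986 or more over the 6 libraries, since r does not read the size of the drop and the distance does. The libraries are shared by all genes, and both measures are descriptions with no p.

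**Figure D4:**
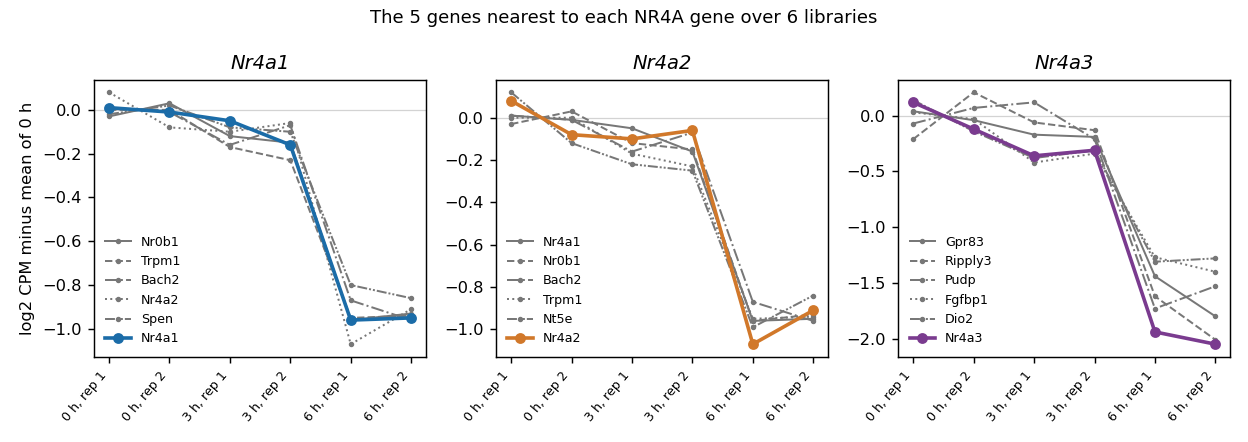
Log2 CPM minus the mean of 0 h (vertical axis) in each of the 6 libraries (horizontal axis) for Nr4a1, Nr4a2 and Nr4a3 (coloured) and the 5 genes with the nearest profile (grey), with lines drawn only to guide the eye. The neighbours of Nr4a1 and Nr4a2 lie close to them in all libraries, whereas those of Nr4a3 had log2 fold changes at 6 h from -1.94 to -1.36, all closer to 0 than the -2.06 of Nr4a3.

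Among other genes that respond to cAMP and CREB, more fell than rose at 6 h. The list had 34 genes, of which 31 were tested. At 6 h 16 fell and 1 rose, or 51.6% and 3.23% of those tested, beside 12.3% and 10% of all tested genes, and the median log2 fold change was -0.32 (0.00195 for all genes). DESeq2 called 10 lower and 0 higher. Ptgs2, the inducible cyclooxygenase, had 3472 and 3664 counts at 0 h and 1938 and 1787 at 6 h, and fell from 175 ± 7.14 to 106 ± 14.8 CPM (log2 fold change -0.72 ± 0.07, edgeR adjusted p = 1.37e-06). Gadd45b, a stress response gene, fell by 0.59, Irs2, an adaptor of insulin receptors, by 0.58, Klf10, a TGF-beta-induced repressor, by 0.40, and Ier2, an immediate early gene, by 0.32.

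Egr2, a zinc finger factor named after its values were seen, had the largest fall of that list. Its counts were 57 and 49, then 31 and 32, then 10 and 17 (-1.75 ± 0.28 at 6 h, edgeR adjusted p = 0.00031). As with Nr4a3, its groups did not overlap and each time was lower than the one before. The 1 member that rose was Pfkfb3, a regulator of glycolysis (0.32 ± 0.08, edgeR adjusted p = 0.00936), also named after its value was seen. Its call was lost with DESeq2 (adjusted p = 0.0957), with no filter and without replicate 2 of 6 h.

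Calls differed among the immediate early genes of the list. Junb (-0.39), Ier3 (-0.39), Dusp1 (-0.22), Egr3 (-0.93) and Fosb (-0.64) were called lower, the last with an adjusted p = 0.0474 in edgeR that was lost with DESeq2 (adjusted p = 0.285), and Egr3 was not called by DESeq2 either (adjusted p = 0.249). Others were not called. Fos went from 3.46 ± 0.211 to 3.53 ± 0.311 CPM (log2 fold change 0.03 ± 0.17, edgeR adjusted p = 0.924). Egr1 had a value of -0.30 ± 0.17 (adjusted p = 0.235), Crem of 0.13 ± 0.11 (adjusted p = 0.426), Per1 of -0.10 ± 0.07 (adjusted p = 0.316) and Sik1 of 0.02 ± 0.05 (adjusted p = 0.819). These 10 genes were named after their values were seen. At 3 h none of the 31 was called (7 lower and 3 higher at an unadjusted p under 0.05, edgeR, and DESeq2 also called none). Between 3 h and 6 h 11 were lower and 1 higher, or 35.5% and 3.23%, beside 11.8% and 9.90% of all tested genes.

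In the promoters of that list, 16 of the 21 genes with a RefSeq promoter (76.2%) held at least 1 TGACG and none held 4. Of the promoters of all tested genes 25.3% held at least 1. The list was made of genes that respond to CREB, which binds this core, so nothing is read from its share. Among the other nuclear receptors 7 of 28 genes (25%) held 1 or more. Both list shares count genes, each by its promoter with the most matches, whereas the 25.3% counts single promoters. The units differ, so these shares are not compared. Over all tested genes with a promoter, apart from the NR4A genes, the share called lower at 6 h was 12.2% of 7859 genes with no TGACG, 14.4% of 2427 with 1, 20.4% of 697 with 2, 21.8% of 133 with 3 and 29.4% of 34 with 4 or more. In the last class 10 genes were called lower. The share called higher was 11.2%, 10.6%, 9.33%, 8.27% and 11.8% in the same order, and the median log2 fold change stayed between -0.04 and 0.01. A full palindrome TGACGTCA counts as 2 matches in these classes, and 2.46% of the promoters of tested genes held at least 1. The classes are therefore not numbers of separate sites, and the part of palindromes in the shares was not tested. Promoters with more matches may differ in base composition too, and its part in these shares was not tested. Each gene was placed by its promoter with the most matches, so a gene with several annotated promoters could reach a higher class. The part of promoter number in the shares was not tested either.

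Genes of the pathways that control NR4A transcription, activators together with some repressors such as the class IIa deacetylases, moved in both directions. All 35 genes of that list were tested, and at 6 h 6 fell and 9 rose, or 17.1% and 25.7%, beside 12.3% and 10% of all tested genes (median -0.01). DESeq2 called 5 lower and 3 higher, and 5 were higher without replicate 1 of 0 h or replicate 2 of 6 h. Srf, the serum response factor, fell from 59.6 ± 3.15 to 45.6 ± 1.5 CPM (log2 fold change -0.39 ± 0.05, edgeR adjusted p = 8.53e-05). Mef2a, a MEF2 factor, fell by 0.31, Ep300, a coactivator of CREB, by 0.22 and Atf2, a relative of CREB, by 0.25. Hdac7, a class IIa deacetylase that represses MEF2, rose from 22.6 ± 1.05 to 31.9 ± 0.0531 CPM (0.50 ± 0.07, edgeR adjusted p = 9.49e-05). Creb1 itself, named after its value was seen, had a value of 0.22 ± 0.05 (edgeR adjusted p = 0.00681). That call was not made by DESeq2 (adjusted p = 0.065) and was lost without replicate 1 of 0 h and with no filter. At 3 h none of the 35 was called (1 lower and 3 higher at an unadjusted p under 0.05, edgeR, and DESeq2 also called none). From 3 h to 6 h, 8 were lower and 5 higher, or 22.9% and 14.3%, beside 11.8% and 9.90% of all tested genes. These are mRNA levels, and the activity of the factors was not measured.

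Partners and coregulators of NR4A proteins also changed in both directions and by little. Of 23 genes 22 were tested, and 5 fell and 5 rose at 6 h, 22.7% each, beside 12.3% and 10% of all tested genes (median 0.04). DESeq2 called 2 lower and 4 higher, and with no filter 3 were called in each direction. The coactivator gene Ncoa2 rose from 53.2 ± 2.34 to 71.9 ± 0.25 CPM (log2 fold change 0.43 ± 0.05, edgeR adjusted p = 1.46e-05), and the corepressor gene Rcor2 rose by 0.28. Rxra, the dimer partner described above, belongs here too. Sfpq, an RNA-binding protein of paraspeckles, and Smad7, an inhibitor of TGF-beta signalling, each fell by 0.18. The count of falls was 2 without replicate 1 of 0 h, and 3 without replicate 2 of 0 h, either replicate of 3 h or replicate 2 of 6 h. It was also 3 with only the 4 libraries compared and with no scaling factors. At 3 h none was called (1 higher at an unadjusted p under 0.05, edgeR, and DESeq2 also called none). Between 3 h and 6 h, 3 were lower and 4 higher, or 13.6% and 18.2%, beside 11.8% and 9.90% of all tested genes.

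Genes reported as NR4A targets in other tissues showed no common direction. Of the 40 listed 24 were tested, and the rest had too few reads. At 6 h 2 fell and 2 rose, 8.33% each, beside 12.3% and 10% of all tested genes, with a median of 0.02. DESeq2 called 2 lower and 1 higher, with no filter 2 were lower and 1 higher, and with the feeder-marker covariate 4 were called in each direction. Runx1, a factor of blood formation, fell from 22.5 ± 1.12 to 17.1 ± 1.32 CPM (log2 fold change -0.40 ± 0.08, edgeR adjusted p = 0.00179). Cited2, a coregulator that binds CBP and p300, rose by 0.37 and Bcl2l11, the apoptosis gene Bim, by 0.31, and the call of Bcl2l11 was not made by DESeq2 (adjusted p = 0.3) and was lost without replicate 1 of 0 h or either replicate of 6 h. At 3 h none was called (2 lower and 3 higher at an unadjusted p under 0.05, edgeR, and DESeq2 also called none). Later, from 3 h to 6 h, 2 were lower and 5 higher, or 8.33% and 20.8%, beside 11.8% and 9.90% of all tested genes.

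**Figure D5:**
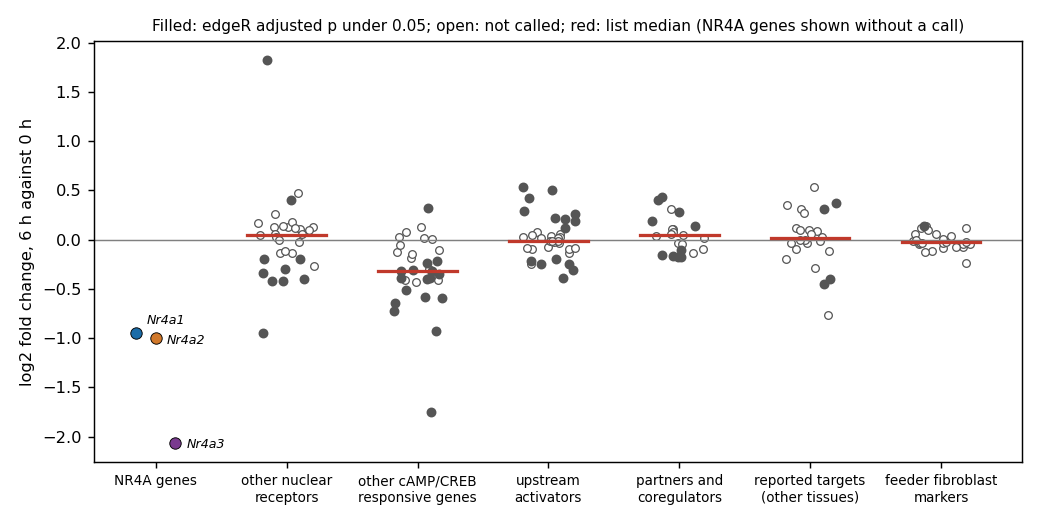
Log2 fold change at 6 h against 0 h (vertical axis) for the NR4A genes and for each tested gene of 6 lists, with filled points for genes called by edgeR at an adjusted p under 0.05 and a red bar at the list median. The cAMP and CREB list has its median at -0.32, and the medians of the other 5 lists lie between -0.02 and 0.05.

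Of the 6 tested genes nearest to the NR4A genes on either side, 1 was called at 6 h. Beside 12.3% of all tested genes called lower and 10% called higher, nothing is read from that count. The called gene was Grasp, a scaffold gene, which lies 21513 bases before Nr4a1. It fell by 0.50 on the log2 scale (SE 0.07, edgeR adjusted p = 0.000111). Atg101, an autophagy gene 9477 bases past Nr4a1, had a value of -0.18 ± 0.06 (adjusted p = 0.0528). The other neighbours lay farther off, Galnt13 (0.30 ± 0.20) 1988521 bases and A930012O16Rik (-0.29 ± 0.52) 112224 bases from Nr4a2, and Sec61b (-0.07 ± 0.05) 561911 bases and Stx17 (0.09 ± 0.10) 38468 bases from Nr4a3, with edgeR adjusted p from 0.306 to 0.733. No neighbour was called at 3 h.

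The 3′ ends of the mRNAs differed between the members. In the longest annotated 3′ UTR, read on the sense strand, Nr4a1 has 543 bases, Nr4a2 1326 and Nr4a3 3095. The AU-rich pentamer ATTTA occurs 3, 3 and 5 times in them, a density of 5.52, 2.26 and 1.62 per kilobase against a median of 1.32 over 13524 tested genes with a 3′ UTR. The density in Nr4a1 is above that of 95.4% of these genes. The nonamer TTATTTATT, which contains ATTTA and is the stricter form of the AU-rich element, is in none of the 3 and in 8.31% of all. AGCACTT, which pairs with the seed shared by the miR-290 and miR-302 families of ES cells, is absent from Nr4a1 and present 1 time in Nr4a2 and 2 times in Nr4a3, while 17.7% of the 3′ UTRs hold at least 1. These sites are shown, in capitals with 10 bases on each side, because DDX6 acts with microRNA silencing and they are a sequence difference between the members, from the GENCODE M21 transcripts.
Nr4a2 site, base 1062 of the UTR: gaaattactgAGCACTTtgaatttttt
Nr4a3 site, base 290 of the UTR: ttgctgacaaAGCACTTttggatgatg
Nr4a3 site, base 1649 of the UTR: agcactgtttAGCACTTtgatatgaaa

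The member with no such site, Nr4a1, and the member with 1, Nr4a2, had 6 h changes that did not differ beyond their errors, and Nr4a3, with 2, fell most. Per kilobase of 3′ UTR the order of the last pair was reversed, at 0.754 sites in Nr4a2 and 0.646 in Nr4a3. With 3 genes these counts and densities are a description of the sequences beside the values and of nothing more. A part of these sites in the changes was not tested.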

How the data were processed

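Per the labels, polyA RNA of mouse ES cells on feeders gave 6 stranded, single-end libraries. The deposited file holds raw counts per Ensembl gene. GRCm38 (mm10) is the build in the submitters' processing notes, which list featureCounts 2.0.3, HISAT2 2.2.1 and fastp 0.22.0. Which annotation release was used, whether counting was by strand and how multiply matching reads were handled is not given in the sources used here.

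From the authors' counts, the tests were run with edgeR 4.0.16 and, as an alternative, DESeq2 1.42.0 (R 4.3.3, limma 3.58.1). Library totals ran from 16357142 to 21846959 counts. Symbols, positions and exon lengths came from GENCODE M21 on GRCm38. Of the IDs, 55227 had a symbol there, and the 260 without one held 0.00294% of the counts. Genes were kept by filterByExpr (minimum count 10), and libraries were scaled by TMM. The quasi-likelihood test was fitted to 6 libraries with 3 group means, 3 residual and 13.7 prior degrees of freedom, and a gene was called where the two-sided p, after Benjamini-Hochberg adjustment, was under 0.05. Standard errors were taken as log2 fold change over the square root of F, in absolute value. The script was tested on simulated data. No replicate pair was a duplicate within sampling noise: chi-square divided by its degrees of freedom was 4.18, 1.97 and 6.46. The detection limit covers counting error only, and standard errors and SDs cover the variation among these libraries, which may be technical.

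The members, the gene lists, the tests and the alternatives were chosen with earlier results of these data known. Named were the 3 members, the 5 nearest profiles of each, up to 5 called members per list with the smallest adjusted p, the nearest tested gene on each side and the receptors closest in rank. Other genes are marked as named after their values were seen. One gene that the rule named is not reported here. Predicted genes were left out of the likeness search. Alternatives were RLE factors, no filter, DESeq2, fits of 4 libraries, a replicate block, a feeder-marker covariate and leaving out each library. The legacy edgeR test and no scaling factors were added after seeing the data.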

Additional observations from a re-analysis of the deposited data

How the results depend on the processing

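The NR4A changes at 6 h against 0 h were known when the genes were chosen, so their range over the alternatives describes the same 6 libraries and is no test. Without one library the log2 fold change ran from -0.96 to -0.94 for Nr4a1, from -1.09 to -0.92 for Nr4a2 and from -2.18 to -1.93 for Nr4a3, and with no scaling factors that of Nr4a1 was -0.92. At 3 h Nr4a2 was at 0.01 without replicate 1 of 0 h. The count of genes called at 3 h (22) was the least stable: 0 with no filter on low counts, 12 with DESeq2, 74 with only the 4 libraries compared, 49 with the feeder-marker covariate, 242 with the replicate block, and from 4 to 249 without one library (lowest without replicate 1 of 3 h, highest without replicate 2 of 0 h). The count at 6 h (3517) was 2029 with no filter, 1581 with DESeq2 and from 2491 to 3091 without one library. For 6 h against 3 h (3415) it was 1726 with no filter, 1347 with DESeq2, 1780 with the feeder-marker covariate and from 1515 to 3708 without one library (lowest without replicate 2 of 3 h, 1713 without its replicate 1 and 2158 without replicate 1 of 6 h). Fits with no filter test more genes, and fits without a library use fewer samples; for the other changes the cause was not tested. With no scaling factors the calls at 6 h were 1458 lower and 2127 higher in place of 1940 and 1577, and for 6 h against 3 h 1295 and 2051 in place of 1856 and 1559. Replicate numbers were not shown to pair the libraries: deviations of replicate 1 from the group means correlated at 0.0615 (0 and 3 h), 0.157 (0 and 6 h) and 0.0142 (3 and 6 h), across genes. The replicate block gave 4229 calls at 6 h and left the NR4A changes at -0.95, -1.0 and -2.06. Each group had 2 libraries, and Nr4a3 rested on 29 and 30 counts at 6 h.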
